A study of Homo sapiens with 6 samples.

Results

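FGF21, GDF15, INHBE, INHBA, STC1, STC2, ADM2 and ANGPTL4 encode secreted factors known to be induced by cell stress in liver cells. Their rows were taken by gene symbol, and all 8 were found among the 25445 rows of the count table. They were chosen by role, with their log2 fold changes and calls in this same comparison known, so their own differences are given as a description, with no p-value. RNA-seq was performed in MHCC-97H cells, an established human hepatocellular carcinoma line. In the 3 6j treated libraries the cells had received compound 6j at 10 μM for 16 h, a compound derived from sophoridine, an alkaloid of Sophora plants. In the 3 non-treated libraries the cells had received solvent for the same 16 h, and all cells were grown in DMEM with fetal bovine serum and antibiotics. The data therefore describe transcripts of 1 line at 1 dose and 1 time. The labels do not say whether the replicates were separate cultures, so p-values measure the spread between these libraries, which may be technical. Nor do they say whether a non-treated and a 6j treated library of the same replicate number belong together.

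FGF21 is a hormone released mainly by the liver that acts through FGF receptors together with the co-receptor β-Klotho (KLB). GDF15 is a distant TGF-β family member that rises in blood in many kinds of cell stress and acts on the hindbrain through GFRAL and RET. INHBA and INHBE encode the activin βA and βE chains, and INHBE is known as a hepatocyte product. STC1 and STC2 are stanniocalcins, glycoproteins linked to calcium and phosphate handling and to inhibition of pregnancy-associated plasma protein A (PAPPA). ADM2 is a peptide of the calcitonin family that acts through CALCRL with RAMP proteins, and ANGPTL4 inhibits lipoprotein lipase. FGF21, GDF15, STC2 and ADM2 are textbook targets of ATF4, the transcription factor of the integrated stress response, and ANGPTL4 is a textbook target of PPAR receptors.

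The window before the start of FGF21 is shown because it holds a C/EBP-ATF composite element, the kind of site that ATF4 is known to bind with C/EBP proteins. The window before the start of ADM2, a gene whose difference also passed the threshold, is shown beside it because it holds no match. Both runs are 133 bases before the RefSeq start, on the plus strand of GRCh38.p14, without annotated exon, and capitals mark the element.
FGF21, chr19:48755391-48755523: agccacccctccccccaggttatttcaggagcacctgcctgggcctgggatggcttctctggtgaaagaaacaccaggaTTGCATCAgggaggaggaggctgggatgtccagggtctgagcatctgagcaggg
ADM2, chr22:50481410-50481542: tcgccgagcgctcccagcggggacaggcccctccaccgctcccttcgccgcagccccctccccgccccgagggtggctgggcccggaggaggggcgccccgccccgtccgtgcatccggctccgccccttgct
The 2 runs differ in base composition, with a GC content of 60.2% for FGF21 and 80.5% for ADM2.

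RefSeq promoter entries were found for 6 of the 8 genes, and 5 motifs were searched on both strands in the 250 bases before each start. These RefSeq starts can differ from the annotated starts used below for coordinates and neighbours. The GDF15 window, chr19:18385908-18386157, lies inside the annotated span of GDF15. Of the 250 bases, 241 for GDF15 and all 250 for STC2 lay in annotated exons of the same gene, and 101 for FGF21 in those of FUT1. The composite element, TGATGNAA, was found in 1 of the 6 windows, that of FGF21, at bases -54 to -47 on the opposite strand. It was found in 3.14% of all 35116 promoters in the table. The letters of the cyclic AMP response element (TGACGTCA, in 1.65% of promoters), of the ER stress element (in 0.074%) and of the PPAR response element (in 0.0171%) were in none of the 6 windows. The TATA box letters TATAAA, present in 10.7% of promoters, began at base -29 in GDF15, at base -29 in ANGPTL4 and at base -11 in INHBA. Such matches describe letters only and do not show binding.

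Libraries held between 31533403 and 37919879 counts in non-treated cells and between 35002336 and 38018349 in 6j treated cells. Of the 13 liver epithelial markers, 9 had fewer than 10 counts in every library, albumin (ALB) and α-fetoprotein (AFP) among them, and TTR, FOXA2 and EPCAM were among those at 0 throughout. The summed level of this list, nearly all from keratins KRT8 and KRT18, was 912 to 1116 counts per 1000000 counts of a library (CPM) in non-treated and 713 to 831 CPM in 6j treated cells. The 5 mesenchymal markers summed to 1127 to 1239 and 992 to 1298 CPM, nearly all from VIM and COL1A1, with COL1A2 at 0 throughout. Of the 3 immune markers, PTPRC and CD3E were at 0. CD68 was at 39.8 to 70.5 CPM in non-treated and 41.8 to 52.1 CPM in 6j treated cells. The 3 endothelial markers summed to 2.18 to 6.25 and 1.86 to 4.03 CPM. The labelled liver origin was thus not visible in secretory markers, and the part of the keratin difference in the values that follow was not tested.

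All 8 factors had enough counts to be tested, and each had a higher mean in 6j treated than in non-treated cells. FGF21, INHBE, STC2 and ADM2 rose, with log2 fold changes of 4.36 (SE 0.73), 3.47 (SE 0.20), 2.27 (SE 0.27) and 2.37 (SE 0.27). GDF15 was higher in every 6j treated than in every non-treated library, by 2.48 (SE 0.54) on the log2 scale, but was not called in the unblocked fit. INHBA, STC1 and ANGPTL4 overlapped between the groups. Calls came from edgeR's quasi-likelihood test, and needed both more than a 1.5-fold difference and a p under 0.05 after Benjamini-Hochberg adjustment. By that rule 4 of the 8 were called, all higher, where 2.48% of the 15957 rows tested were called higher, 1.12% lower and 3.6% in either direction. The median log2 fold change was 2.32 over the 8 genes and 0.0046 over all rows tested. Since the genes were chosen with this contrast known, nothing is read from these counts. The RNA came from bulk cells, so more cells expressing a gene and more of its RNA per cell cannot be told apart.

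**Figure D1:**
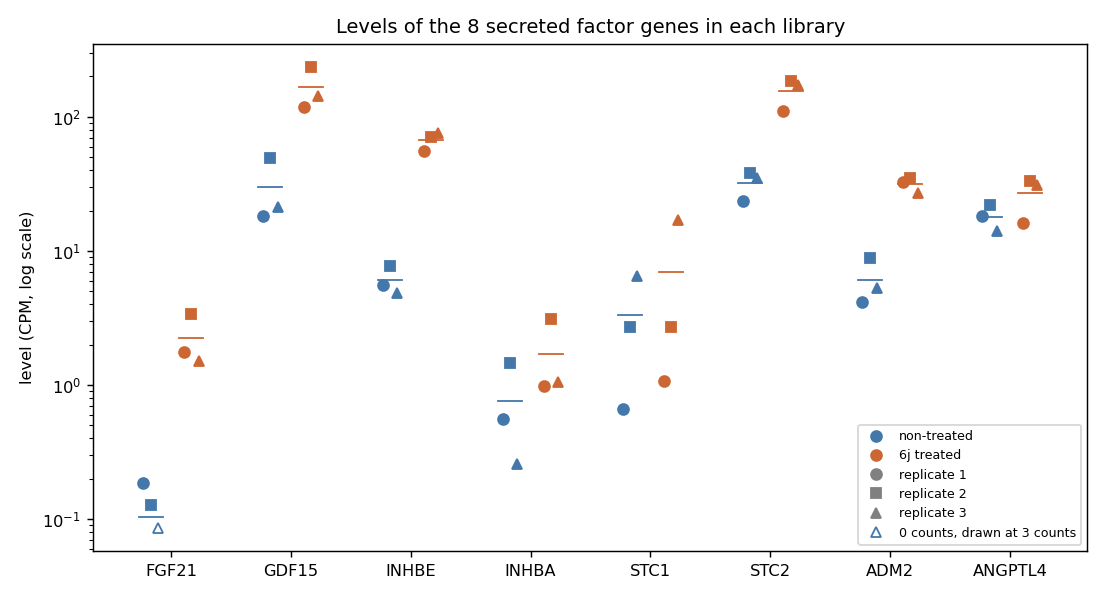
Level of each of the 8 genes in each library, in CPM on a log axis; points are libraries, shaped by replicate number, and bars are means of the non-treated (blue) and 6j treated (orange) groups. FGF21, GDF15, INHBE, STC2 and ADM2 do not overlap between the groups, and INHBA, STC1 and ANGPTL4 do. The open triangle is FGF21 in non-treated replicate 3, which had 0 counts and is drawn at the level of 3.

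FGF21 (ENSG00000105550, chr19:48755559-48758333, plus strand, GRCh38) was close to the detection limit without 6j. Counts were 7, 4 and 0 in non-treated replicates 1, 2 and 3 and 68, 129 and 52 in the 6j treated replicates. These correspond to 0.186, 0.127 and 0 CPM against 1.77, 3.41 and 1.51 CPM. Every 6j treated library was above every non-treated library, and 6j treated replicate 2 was the highest. The means were 0.104 ± 0.0949 and 2.23 ± 1.03 CPM (SD, n = 3), a fitted 20.6-fold difference. That fold rests on very low non-treated counts. In replicate 3 the ratio was 17.6 with the 0 set to 3 counts, a chosen value, while the ratios in replicates 1 and 2 were 9.53 and 26.9. Leaving out 1 library moved the log2 fold change between 3.79 and 5.11, the latter without non-treated replicate 1, and FGF21 was no longer called without 6j treated replicate 2, at 3.92.

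GDF15 (ENSG00000130513, chr19:18374731-18389176, plus strand) had the highest 6j treated level of the 8 genes per length of transcript. Its counts were 688, 1565 and 744 in non-treated and 4568, 8891 and 4926 in 6j treated libraries. Levels were 18.3, 49.6 and 21.4 CPM and 119, 235 and 143 CPM. Replicate 2 was the highest library in both groups, by 2.72 times over the lowest non-treated library and 1.98 times over the lowest 6j treated one. The means were 29.8 ± 17.3 and 166 ± 61.3 CPM (SD, n = 3), a 5.58-fold difference. Within replicate numbers the ratio was 6.51, 4.74 and 6.71, a narrower spread than that of the levels. With the replicate number as a block GDF15 was called at 2.56 (SE 0.10), and by DESeq2 at 2.48. It was also called without non-treated replicate 2, at 3.06, the only 1 of the 6 fits with a library left out that called it. RLE factors, library totals, no low-count filter and Ensembl rows only gave no call. Their edgeR adjusted p was 0.0617, 0.0687, 0.0975 and 0.0567. A microRNA gene, MIR3189, lies within GDF15 and shares no exon bases with it.

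INHBE (ENSG00000139269, chr12:57452323-57459280, plus strand) did not overlap between the groups. Its counts were 210, 245 and 170 in non-treated and 2131, 2681 and 2606 in 6j treated libraries, or 5.57, 7.77 and 4.88 CPM and 55.5, 70.9 and 75.9 CPM. The lowest 6j treated library was above the highest non-treated one by a wide margin. The means were 6.08 ± 1.51 and 67.4 ± 10.6 CPM (SD, n = 3), an 11.1-fold rise. The ratio was 9.95, 9.12 and 15.5 in replicates 1, 2 and 3. INHBE was called whichever library was left out, at 3.34 to 3.69 on the log2 scale.

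INHBA (ENSG00000122641, chr7:41667168-41705834, minus strand), the βA chain, had few counts. They were 21, 46 and 9 in non-treated and 38, 117 and 36 in 6j treated libraries, which is 0.557, 1.46 and 0.259 CPM against 0.989, 3.09 and 1.05 CPM. Non-treated replicate 2 lay above 6j treated replicates 1 and 3, so the groups overlapped. The means were 0.758 ± 0.625 and 1.71 ± 1.20 CPM (SD, n = 3), with a log2 fold change of 1.18 (SE 0.68) that was not called. The ratio within replicate numbers was 1.77, 2.12 and 4.05, and with the replicate block INHBA was called at 1.25 (SE 0.38). Leaving out 1 library moved the difference between 0.43 and 2.05. The antisense gene INHBA-AS1 lies opposite INHBA and shares no exon bases with it.

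STC2 (ENSG00000113739, chr5:173314713-173329503, minus strand) was higher by almost the same factor in each pair of libraries of the same replicate number. Counts were 890, 1210 and 1218 in non-treated and 4213, 6954 and 5978 in 6j treated libraries. Levels were 23.6, 38.4 and 35.0 CPM and 110, 184 and 174 CPM, with replicate 1 the lowest in both groups. The groups did not overlap. The means were 32.3 ± 7.73 and 156 ± 40.3 CPM (SD, n = 3), a 4.82-fold rise, and the ratio was 4.64, 4.79 and 4.97 in replicates 1, 2 and 3. STC2 was called whichever library was left out, at 2.09 to 2.47 on the log2 scale.

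STC1 (ENSG00000159167, chr8:23841915-23854807, minus strand) is the other human stanniocalcin, and its counts followed the replicate number more than the treatment. They were 25, 86 and 228 in non-treated and 41, 102 and 589 in 6j treated libraries. Levels were 0.663, 2.73 and 6.55 CPM and 1.07, 2.70 and 17.1 CPM. Replicate 3 was the highest and replicate 1 the lowest in both groups. The means were 3.31 ± 2.99 and 6.97 ± 8.85 CPM (SD, n = 3), and the log2 fold change of 1.07 (SE 1.36) was not called. The ratio was 1.61, 0.989 and 2.62 within replicate numbers, and with the replicate block the difference of 0.73 (SE 0.27) was not called either. Without 6j treated replicate 3 the difference turned to -0.81. The biological coefficient of variation of STC1 was above that of 99.5% of the rows tested. The difference between STC2 and STC1 in their response was not tested.

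ADM2 (ENSG00000128165, chr22:50481556-50486440, plus strand) rose to a similar level in the 3 6j treated libraries. Counts were 157, 279 and 185 in non-treated and 1262, 1321 and 925 in 6j treated libraries. Levels were 4.17, 8.85 and 5.31 CPM and 32.8, 34.9 and 26.9 CPM, and the groups did not overlap. The means were 6.11 ± 2.44 and 31.6 ± 4.15 CPM (SD, n = 3), a 5.18-fold rise. The ratio was 7.88, 3.95 and 5.07, lowest in replicate 2, whose non-treated library was the highest of its group. ADM2 was called whichever library was left out, at 2.16 to 2.74 on the log2 scale.

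ANGPTL4 (ENSG00000167772, chr19:8363289-8374373, plus strand) had the smallest difference of the 8. Counts were 687, 689 and 487 in non-treated and 626, 1256 and 1072 in 6j treated libraries, or 18.2, 21.9 and 14.0 CPM and 16.3, 33.2 and 31.2 CPM. In 6j treated replicate 1 the level was below that of non-treated replicates 1 and 2, whereas 6j treated replicates 2 and 3 were above all non-treated libraries. The means were 18.0 ± 3.94 and 26.9 ± 9.25 CPM (SD, n = 3), with a log2 fold change of 0.58 (SE 0.29) that was not called. The ratio was 0.894, 1.52 and 2.23 within replicate numbers. Without 6j treated replicate 1 ANGPTL4 was called, at 0.84. The opposite-strand gene RAB11B-AS1 shares 1 exon base with it.

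**Figure D2:**
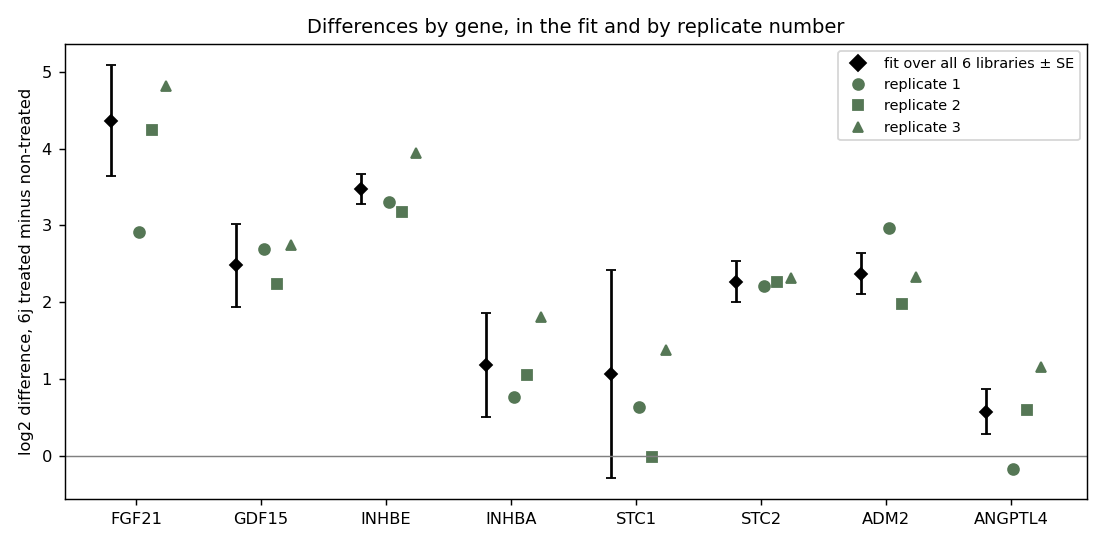
Log2 difference between 6j treated and non-treated cells for each of the 8 genes, from the unblocked fit with its standard error (black) and from each pair of libraries of the same replicate number (green, on log2 CPM with a prior count of 2, which pulls in the ratios of low genes such as FGF21). STC2 has nearly equal ratios in the 3 pairs, STC1 and ANGPTL4 have 1 pair each on the other side of 0, and INHBE and FGF21 have the largest differences.

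Across the 8 genes, 5 had every 6j treated library above every non-treated library, as did 16.0% of the rows tested, where 31.7% did not overlap in either direction. In all 3 pairs of the same replicate number 6 of the 8 were higher in 6j treated cells, where 28.4% of the rows tested were. The exceptions were replicate 2 of STC1 and replicate 1 of ANGPTL4. With the replicate block 6 of the 8 were called, where 4.01% of the rows tested were called higher by that fit, 2.46% lower and 6.47% in either direction. Of the 8 genes, 6 had their highest non-treated level in replicate 2 and 6 had their highest 6j treated level in replicate 2. The spread between replicates also differed among the genes, with a biological coefficient of variation above 57.5% of the rows tested for INHBE, 68.4% for STC2, 69.1% for ADM2 and 72.7% for ANGPTL4. For GDF15, FGF21 and INHBA it was above 92.0%, 92.7% and 96.9% of the rows.

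Levels can be ranked between genes only per length, here as CPM per kilobase of annotated exon. In 6j treated cells GDF15 was the highest at 79.5 ± 29.4 (SD, n = 3), with no library below those of the next gene. STC2 followed at 25.4 ± 6.58 and INHBE at 22.4 ± 3.53, and these neighbours overlapped. ANGPTL4 at 10.8 ± 3.73 and ADM2 at 7.38 ± 0.972 overlapped as well, below INHBE. FGF21 at 1.70 ± 0.783 and STC1 at 1.68 ± 2.13 came next and overlapped. INHBA was the lowest at 0.206 ± 0.144, and 1 of its 3 libraries lay within the range of STC1. In non-treated cells the order of the means was GDF15 (14.3), ANGPTL4 (7.26), STC2 (5.28), INHBE (2.02), ADM2 (1.43), STC1 (0.799), INHBA (0.0913) and FGF21 (0.0793). INHBE, STC2 and ADM2 thus came nearer to or passed ANGPTL4, the gene with the smallest difference. The scale depends on the transcript assumed, and with the longest transcript instead of all exons the 6j treated mean was 138 for GDF15 and 27.8 for INHBE.

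**Figure D3:**
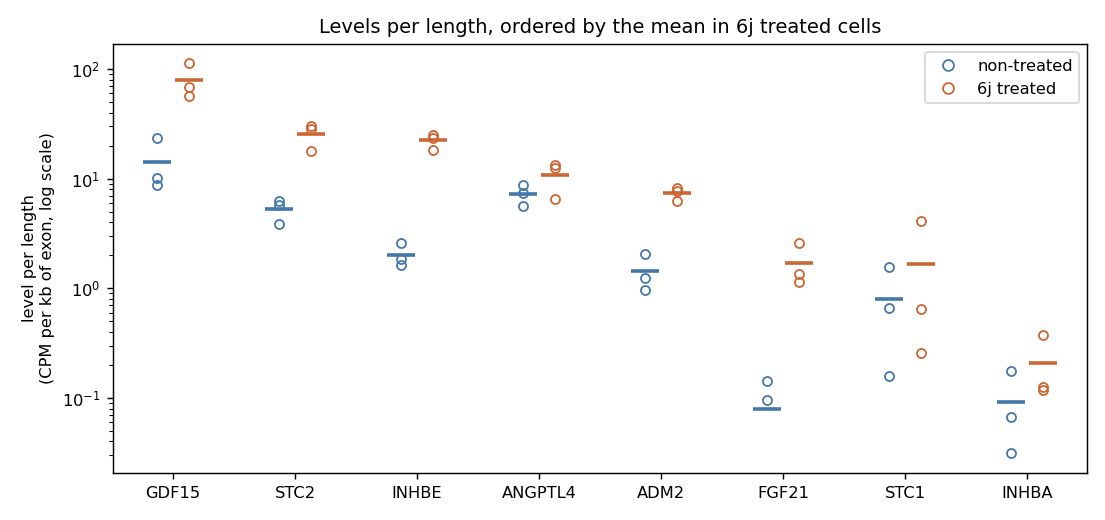
CPM per kilobase of annotated exon for the 8 genes on a log axis, with circles for libraries and bars for group means. GDF15 is the highest in 6j treated cells and INHBA the lowest; the non-treated FGF21 library at 0 cannot be drawn on a log axis but is counted in the mean.

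Receptors and co-receptors through which these factors act were mostly at low counts or showed no call. Of 20 genes, 10 had enough counts to be tested, and FGFR3 was the only one called. Over all rows tested, 1.12% were called lower and 3.6% in either direction. FGFR3, an FGF receptor, fell by 0.92 on the log2 scale (SE 0.21, edgeR adjusted p = 0.033), from 24.1 ± 4.44 to 12.7 ± 3.30 CPM (SD, n = 3). Without non-treated replicate 1 or 3 or without 6j treated replicate 2 or 3 this call was lost, and over the 6 fits with a library left out the difference was -1.06 to -0.72. FGFR1 and FGFR4 had log2 fold changes of -0.17 (SE 0.12) and -0.10 (SE 0.17). For the activin receptors ACVR2A, ACVR2B and ACVR1B they were 0.03 (SE 0.17), 0.14 (SE 0.12) and 0.08 (SE 0.09). The direction of FGFR4 and of ACVR2A turned with 1 library left out. KLB, GFRAL, RET, CALCRL, RAMP1 and LPL were among the 10 that could not be tested, none of which exceeded 16 counts in a library and 4 of which were at 0 in all 6.

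Relatives, antagonists and processing enzymes of the 8 factors numbered 30, of which 20 were tested and 1 was called. This was 5% of those tested, beside 3.6% of all rows tested in either direction and 2.48% higher. INHBC, the activin βC chain and the gene next to INHBE, rose by 2.50 on the log2 scale (SE 0.55, edgeR adjusted p = 0.0248), from 9, 9 and 4 counts to 61, 54 and 22. That call was lost in 5 of the 6 fits with a library left out, with 6j treated replicate 3 the exception. DESeq2 did not call INHBC, and its 1 call among the relatives was another gene. SMAD7, an intracellular inhibitor of TGF-β family signals, and the proprotein convertases FURIN and PCSK7 had log2 fold changes of -0.58, -0.55 and -0.38, with adjusted p under the threshold but folds short of 1.5. FST, which encodes the activin antagonist follistatin, had 1.22 (SE 0.57, edgeR adjusted p = 0.216). INHBB, the βB chain, had 0.14 (SE 0.40) and PAPPA, the protease that stanniocalcins inhibit, 0.19 (SE 0.26), and the direction of each turned with 1 library left out. FGF19, the closest endocrine relative of FGF21 in liver and bile acid biology, was not tested.

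Transcription regulators known to act on genes of these factors numbered 22, of which 20 were tested and 6 were called, all higher. The 6 were 30% of those tested, where 2.48% of all rows tested were called higher and 3.6% in either direction. DDIT3 (CHOP) rose by 2.27 on the log2 scale (SE 0.16, edgeR adjusted p = 0.000575), from 21.0 ± 4.07 to 101 ± 14.7 CPM (SD, n = 3). ATF4 rose by 1.10 (SE 0.09), its partner CEBPG by 1.36 (SE 0.12), the ATF4 inhibitor TRIB3 by 1.94 (SE 0.18) and ATF3 by 1.60 (SE 0.21). These 5 were called whichever library was left out. PPARA, the fatty acid receptor known to drive FGF21 and ANGPTL4, rose by 0.77 (SE 0.15, edgeR adjusted p = 0.0181), a call that disappeared without non-treated replicate 1 or 2 or 6j treated replicate 2. XBP1, a regulator of the unfolded protein response, had 0.53 (SE 0.10, edgeR adjusted p = 0.013). ATF6 had 0.49 (SE 0.08, edgeR adjusted p = 0.0113), and the folds of both were short of 1.5. These regulators and the 8 factors were measured in the same libraries, and ATF4 is also known to be controlled in its translation, which these counts do not show.

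Other secreted factors known from stressed epithelial or liver cells gave a further 2 calls among 26 tested of 30. Both were higher and made up 7.7% of those tested, beside 2.48% higher and 3.6% in either direction over all rows tested. VEGFA, the angiogenic growth factor, rose by 1.24 (SE 0.26, edgeR adjusted p = 0.0393), from 218 ± 23.2 to 514 ± 185 CPM (SD, n = 3). METRNL, a secreted meteorin relative, rose by 0.63 (SE 0.17, edgeR adjusted p = 0.0482). The VEGFA call was lost without any single non-treated library, without 6j treated replicate 2 and without the filter on low counts (edgeR adjusted p = 0.0909), and the METRNL call was lost without any 1 of these 4 libraries and without 6j treated replicate 3. CRELD2 and MANF, secreted proteins of the endoplasmic reticulum that are known to be induced by ER stress, had log2 fold changes of -0.54 and -0.35. Their edgeR adjusted p was 0.0198 and 0.0374, under the threshold, but their folds were short of 1.5. Of 26 proteins that hepatocytes secrete in bulk, 5 were tested. By edgeR none of the 5 was called and 0 had an unadjusted p under 0.05, and DESeq2 called 0. The 3 of smallest adjusted p were VTN with -0.44 (SE 0.20), SHBG with 0.70 (SE 0.48) and APOE with -0.65 (SE 0.80), and the direction of APOE turned without non-treated replicate 3.

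**Figure D4:**
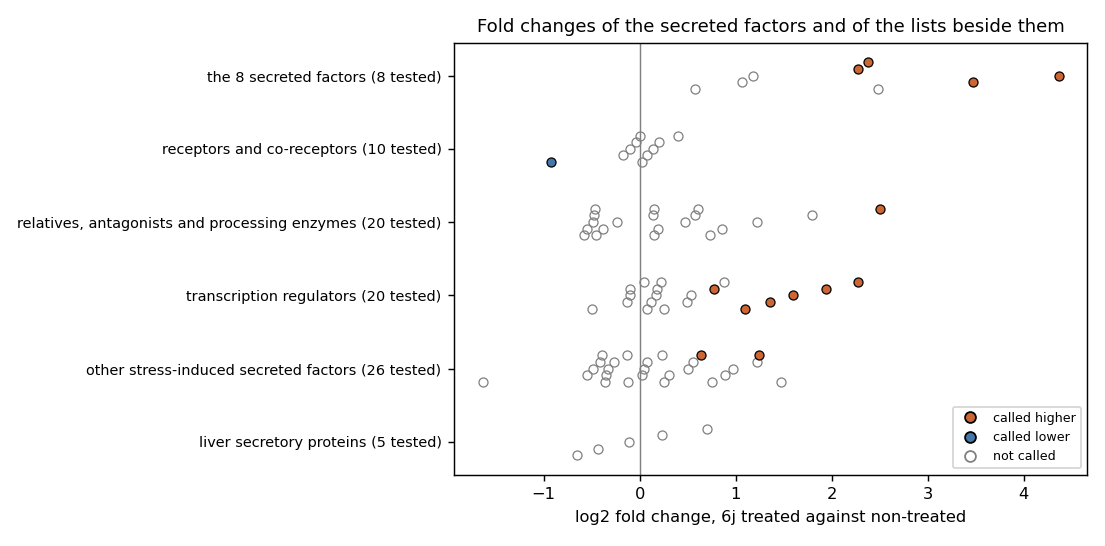
Log2 fold change between 6j treated and non-treated cells for every tested gene of each list, with genes called higher in orange, called lower in blue and not called open. The 8 factors and the transcription regulators lie mostly above 0 (16 of 20 regulators). So do 12 of 20 relatives, 15 of 26 other secreted factors, 5 of 10 receptors and 2 of 5 bulk liver secretory proteins. The median over all rows tested was 0.0046.

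Genes beside the 8 factors on the chromosomes were examined within 100 kb of each start. The table held 44 such genes, of which 36 were tested and 5 were called, all higher, or 13.9% of those tested, where 2.48% of all rows tested were called higher. FUT1, which encodes the fucosyltransferase of the H blood group antigen, starts 169 bases before FGF21 on the opposite strand. Its levels were 0.955, 0.666 and 0.546 CPM in non-treated and 4.11, 5.71 and 3.46 CPM in 6j treated libraries. FUT1 rose by 2.61 on the log2 scale (SE 0.32, edgeR adjusted p = 0.00432) and was called whichever library was left out. FUT1 and FGF21 therefore share the stretch printed above, and the window before the RefSeq start of FUT1 holds the same composite element, beginning at base -119. How far reads of this head-to-head pair were assigned by strand was not given in the sources used here, although the annotated genes do not overlap.

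INHBE had 3 called genes among 8 tested neighbours by edgeR, and 2 by DESeq2, which did not call INHBC. INHBC ends 1494 bases before INHBE on the same strand. MARS, the methionyl-tRNA synthetase, starts 23.1 kb after the start of INHBE and rose by 0.86 (SE 0.12, edgeR adjusted p = 0.00758). DDIT3 starts 69.4 kb away, and its span overlaps that of MARS by 982 bases on the opposite strand, where reads without strand could not be told apart. GLI1, the nearest tested gene, had 1.30 (SE 0.57, edgeR adjusted p = 0.186). Near ADM2, KLHDC7B rose by 2.55 (SE 0.50, edgeR adjusted p = 0.0363) at a distance of 64.3 kb, a call lost without non-treated replicate 1 or 2, without 6j treated replicate 1 or 2, and without the filter on low counts (edgeR adjusted p = 0.085). GDF15 had 5 tested neighbours, none called in the unblocked edgeR fit, with 4 of them at an unadjusted p under 0.05 and 1 called by DESeq2. The nearest of them, PGPEP1, had 0.73 (SE 0.20, edgeR adjusted p = 0.0628), was called with the replicate block at 0.70, with library totals at 0.74 and by DESeq2 at 0.73. JUND near GDF15 and MBD6 near INHBE were higher, and SSBP4 near GDF15 was lower. Their edgeR adjusted p was 0.0113, 0.0138 and 0.0264, with folds short of 1.5. The 7 tested neighbours of ANGPTL4 and the 1 of STC2 gave no call in the unblocked or the blocked edgeR fit, with 3 and 0 of them at an unadjusted p under 0.05 and 0 and 0 called by DESeq2. The 3 near ANGPTL4 were RPS28, HNRNPM and NDUFA7, all lower. Their edgeR adjusted p was 0.0204, 0.026 and 0.0409, with folds short of 1.5. No gene of the table lay within the window around INHBA or STC1.

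**Figure D5:**
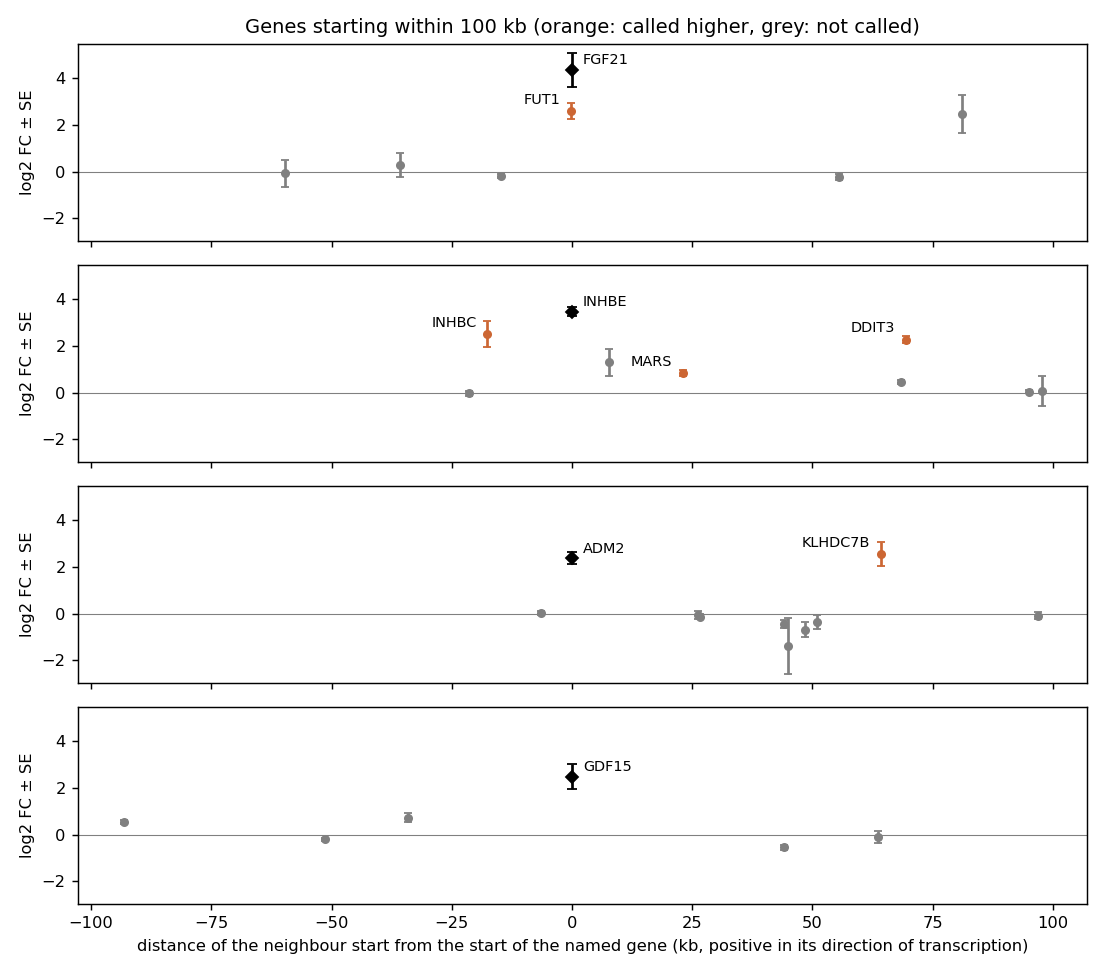
Log2 fold change with its standard error for tested genes around FGF21, INHBE, ADM2 and GDF15 (black diamonds), against the distance between gene starts in kilobases; called genes are orange. FUT1 lies next to FGF21 at a log2 fold change close to 2.61, and INHBC, MARS and DDIT3 lie within the window around INHBE.

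Likeness of profiles was measured as the root mean square difference, over the 6 libraries, between log2 CPM profiles each centred on its own mean. The nearest genes to GDF15 were CYP26A1 (0.177), a retinoic acid hydroxylase, HRK (0.238), a BCL-2 family member, and CHAC1 (0.279), a glutathione-degrading enzyme. CYP26A1 was listed at 0 counts in 2 non-treated libraries. For INHBE they were BEX2 (0.435), CHAC1 (0.540) and CYP26A1 (0.571). For FGF21 they were BEX2 (0.702), INHBE (0.710) and KLHDC7B (0.741), so its nearest profiles were farther away than those of GDF15. With a smaller prior count of 0.5 in place of 2, only BEX2 of these 3 stayed among the 3 nearest for FGF21, and CYP26A1 was no longer among the 5 nearest for GDF15 or INHBE. Among the 8 factors the closest pair was GDF15 with ADM2 (0.307), followed by STC2 with ADM2 (0.341) and GDF15 with STC2 (0.398). The libraries, their depth and the 2 groups are common to all these profiles, so the distances are descriptions over 6 points.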

How the data were processed

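The authors deposited gene counts of 6 libraries, 3 non-treated and 3 6j treated, as whole numbers without normalization. The submitters' processing notes name HISAT2, StringTie and GRCh38. The counting program, annotation and strand setting are not given in the sources used here. The study's methods name DESeq2 and ask for p under 0.05 and more than a 1.5-fold change. The 19974 Ensembl identifiers all matched GENCODE 29, and 5471 rows were new genes. Levels were computed as CPM with edgeR's TMM factors. The whole table was filtered with filterByExpr (minimum count 10) and tested with edgeR 4.0.16 (quasi-likelihood, robust, R 4.3.3), adjusted by Benjamini-Hochberg over 15957 rows. The SE of an edgeR log2 fold change was derived from the test, as its absolute value divided by the square root of the F statistic. The code was tested on simulated data. Deviations of libraries with the same replicate number correlated at 0.171, 0.18 and 0.312, so the number was also fitted as a block. These correlations are weak, and the labels do not say that the number marks a batch or a pair. Depth was at least 31533403 counts, and 3 counts in non-treated replicate 3 were 0.0862 CPM. Alternatives were RLE factors, library totals, no low-count filter, Ensembl rows only, no fold threshold, DESeq2 1.42.0 and leaving out each library.

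The 8 genes, the gene lists and the motifs were chosen with earlier results of these data known. The genes named were the 8, the called genes of each list (up to 6 by smallest adjusted p, or the 3 of smallest adjusted p where none was called), others fixed by role, called neighbours, the nearest tested neighbour of FGF21, GDF15 and INHBE, and their 3 nearest profiles. SMAD7, FURIN, PCSK7, ATF6, CRELD2 and MANF were added after their values were seen. Values of some genes named by this rule are not reported here.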

Additional observations from a re-analysis of the deposited data

How the results depend on the processing

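Counts near 0 limit FGF21, INHBA and INHBC, and STC1 is limited by the spread between replicate numbers. Of the 8 factors, 3 to 5 were called with 1 library left out, against 4 with all, and 5 by DESeq2. Calls over all rows tested went from 574 to 1462 without the fold threshold, 1033 with the replicate block and 186 to 772 with 1 library left out. DESeq2 called 773 rows over the whole table, more than the 574 of edgeR. Relatives gave 1 call, higher, 4 without the fold threshold (1 higher, 3 lower), 2 higher with the block and 0 to 2 with 1 library left out, of which 1, 1 and 2 were all lower without non-treated replicate 2, non-treated replicate 3 and 6j treated replicate 1. Other secreted factors gave 2, 4, 5 and 0 to 4, and neighbouring genes 5, 11, 8 and 3 to 8, in the same order. Lower calls, absent from both of these at first, were 2 and 4 without the fold threshold, 1 and 1 with the block and at most 1 and 1 with 1 library left out. With 1 library left out, receptors gave 0 to 1 call, bulk liver secretory proteins 0 to 1 and transcription regulators 5 to 7. Whole-table calls were fewest without non-treated replicate 1 (186), 6j treated replicate 2 (193) and non-treated replicate 3 (379). Directions turned with 1 library left out for STC1 (-0.81 to 2.05), APOE (-1.12 to 0.48), FGFR4 (-0.32 to 0.031), ACVR2A (-0.095 to 0.13), INHBB (-0.073 to 0.40, and -0.029) and PAPPA (-0.14 to 0.36). Among the genes named by rule, the blocked fit changed the calls of GDF15, INHBA, PGPEP1 and CYP26A1 and no other. RLE factors changed no call among them. The causes of these changes were not tested.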

Other observations

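With the replicate number as a block, 5 genes were called among the 26 tested other stress-induced secreted factors, against 2 without it. Over all rows tested, 6.47% were called with the block and 3.6% without it. CXCL2, a neutrophil chemokine, was at 1.93 ± 0.446 CPM in non-treated and 4.51 ± 2.25 CPM in 6j treated cells (SD, n = 3), and with the block it was higher by 1.14 on the log2 scale (edgeR adjusted p = 0.00475). IGFBP1, a liver-expressed insulin-like growth factor binding protein, was at 0.569 ± 0.401 and 1.58 ± 1.19 CPM, with 1.53 in the blocked fit (edgeR adjusted p = 0.0307). TNFSF10, the death ligand TRAIL, was lower, at 5.53 ± 3.63 and 1.77 ± 1.26 CPM, with -1.63 in the blocked fit (edgeR adjusted p = 0.00089). Without the block none of these 3 was called, and the groups overlapped for IGFBP1 and TNFSF10. The 3 were chosen after their values were seen.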
